A study of Mus musculus with 9 samples.

Results

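The genes described here are 42 members of the NF-kB pathway in mouse hepatoma cells, chosen by symbol from a fixed list: 5 Rel/NF-kB subunits, 5 IkB proteins, 9 genes of the IkB kinases, the kinases upstream and their partner proteins, 6 adaptors of the TRAF, IAP and CBM families, 8 regulators of ubiquitin chains and 9 induced targets. All 42 were found among the 53647 genes of the count table, and all 42 had enough counts to be tested, as did 13661 genes in all. RNA was taken from Hepa 1-6 cells, a hepatoma line of the mouse liver, in 3 groups of 3 samples: cells with a control guide RNA (sgControl), cells with Usp5 knocked out through a lentiviral CRISPR construct, and cells with Ythdf1 knocked out through a CRISPR/Cas9/EGFP plasmid. Every group was grown in serum-containing medium and no agent was added that would stimulate the pathway, so far as the labels say. Knockout cells were single cell clones picked after serial dilution and checked by immunoblot. The labels do not say how many clones the 3 samples of a group stand for, nor how the control cells were made, so clone, vector and genotype cannot be told apart. The series set out to find immune genes that the loss of either protein changes in a similar way.

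In resting cells NF-kB dimers are held in the cytoplasm by IkB proteins. Receptors of the TNF and interleukin families recruit adaptors on which ubiquitin chains are built, among them the linear chains made by the complex of Rnf31 (HOIP), Rbck1 (HOIL) and Sharpin, and these chains bring in the kinases that mark IkB for degradation. The freed dimers switch on inflammatory and survival genes, and among their targets are several of their own inhibitors, such as Nfkbia and Tnfaip3. Usp5 takes apart unanchored ubiquitin chains, and Ythdf1 binds N6-methyladenosine in mRNA and acts on translation.

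Libraries held 24760877 to 42989715 counts. Control replicate 3 stood apart from the other controls: it was the shallowest library, mitochondrial transcripts took 5.91% of its counts against 2.33% and 2.32% in the other controls, and its log2 CPM (CPM is a count scaled to the library's total) correlated with the other controls at 0.984 where those 2 correlated at 0.995 (Pearson's r over genes, which are not independent replicates). The mitochondrial share of the 6 knockout libraries was 3.51% to 6.14%, above those of control replicates 1 and 2 in each. Replicates correlated at 0.983 to 0.990 in the Usp5 knockout and at 0.989 to 0.992 in the Ythdf1 knockout. The 3 controls gave Usp5 levels of 233, 224 and 183 CPM, and the 3 samples of its knockout gave 123, 113 and 110.3 CPM. This is a fall by 0.89 (SE 0.11) on the log2 scale, with an adjusted p of 0.000316 (edgeR's quasi-likelihood test with Benjamini-Hochberg adjustment over all tested genes, as for each adjusted p given here). Ythdf1 levels were 190.1, 181 and 195 CPM for control samples but 49.2, 45.7 and 49.8 CPM after its own knockout, a log2 fold change of -1.97 ± 0.074 (adjusted p = 1.21e-07). Neither target passed the test in the other knockout. The label of a hepatoma line was checked against 10 hepatocyte or hepatoma markers, which summed to 4520 to 4760 CPM in the controls, although Apoa1 and Ttr stood at 1.26 CPM or less in every sample. The 5 endothelial markers summed to at most 1.22 CPM. The 7 stellate or fibroblast markers summed to 855 to 1270 CPM in the controls, 1080 to 1410 CPM in the Usp5 knockout and 1060 to 1290 CPM in the Ythdf1 knockout, nearly all of it from Dcn, with the stellate cell marker Lrat at 0.

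In the Usp5 knockout, 22 of the 42 genes fell, 0 rose and 20 did not pass the test. The lower side held the alternative subunits Nfkb2 and Relb, the inhibitors Nfkbia and Nfkbie, the kinases Ikbke and Map3k14, the ubiquitin-editing enzyme Tnfaip3 and the targets Traf1, Ier3, Gadd45b and Icam1. Over all genes tested, 9.8% were lower and 9.96% were higher in this comparison (adjusted p under 0.05, here and throughout). The median log2 fold change was -0.39 over the members and -0.012 over all genes. Without adjustment, 26 members were lower and 1 was higher at p under 0.05, a cut-off at which the share of all genes was not counted. DESeq2 called 24 members lower and 1 higher, where it called 11.7% of all genes lower and 13.2% higher. Without control replicate 3, 24 were lower and 4 were higher, where 15% of all genes were lower and 16.2% were higher. As in any bulk sample, a transcript lost from some of the cells and a lower level in every cell cannot be told apart. The 8 leukocyte markers summed to 13 to 15.4 CPM in the controls and to 10.3 to 11.7 CPM in the Usp5 knockout. The pan-leukocyte marker Ptprc stood at 0.264 CPM or less and the T cell marker Cd3e at 0 in every sample. Nearly all of each sum came from the other markers of the list. The 4 bile duct markers summed to 197 to 244 CPM in the controls and to 380 to 452 CPM in the Usp5 knockout, where the hepatoma markers summed to 5460 to 5730 CPM. The part of these markers, and of the mitochondrial share, in the result was not tested.

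In the Ythdf1 knockout the genes went both ways, with 10 higher, 15 lower and 17 that did not pass. Higher genes included the subunit Rela, the inhibitors Nfkbib and Bcl3, the linear ubiquitin genes Rnf31, Rbck1 and Otulin, and the targets Gadd45b, Traf1 and Icam1. Lower genes included Nfkbiz, Tnfaip2, Traf3, Birc2 and Cflar. Of the members, 23.8% were higher, near the 23.7% of all genes tested, and 35.7% were lower, against 22.8% of all genes tested. The members' median log2 fold change was -0.012, against 0.021 over all genes. A correction for the GC content and length of genes left 17 of these 25 calls. With it 8 members were higher and 14 lower in all, where 22.2% of all genes were higher and 19.8% lower. It kept 22 of the 22 calls of the Usp5 comparison. With library sizes alone in place of TMM scaling, which shifts the median of all genes to -0.12, the Ythdf1 knockout had 7 members higher and 17 lower, with 15.8% of all genes higher and 30.6% lower. Without Ythdf1 knockout replicate 3, there were 6 higher and 14 lower, with 16.2% and 18.4% of all genes. Hepatoma markers summed to 6600 to 6640 CPM in the Ythdf1 knockout, leukocyte markers to 15.4 to 17.1 CPM and bile duct markers to 261 to 273 CPM. Endothelial markers summed to 1.06 to 1.22 CPM there and to 0.644 to 0.925 CPM in the controls. The part of these markers in the result was not tested.

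**Figure D1:**
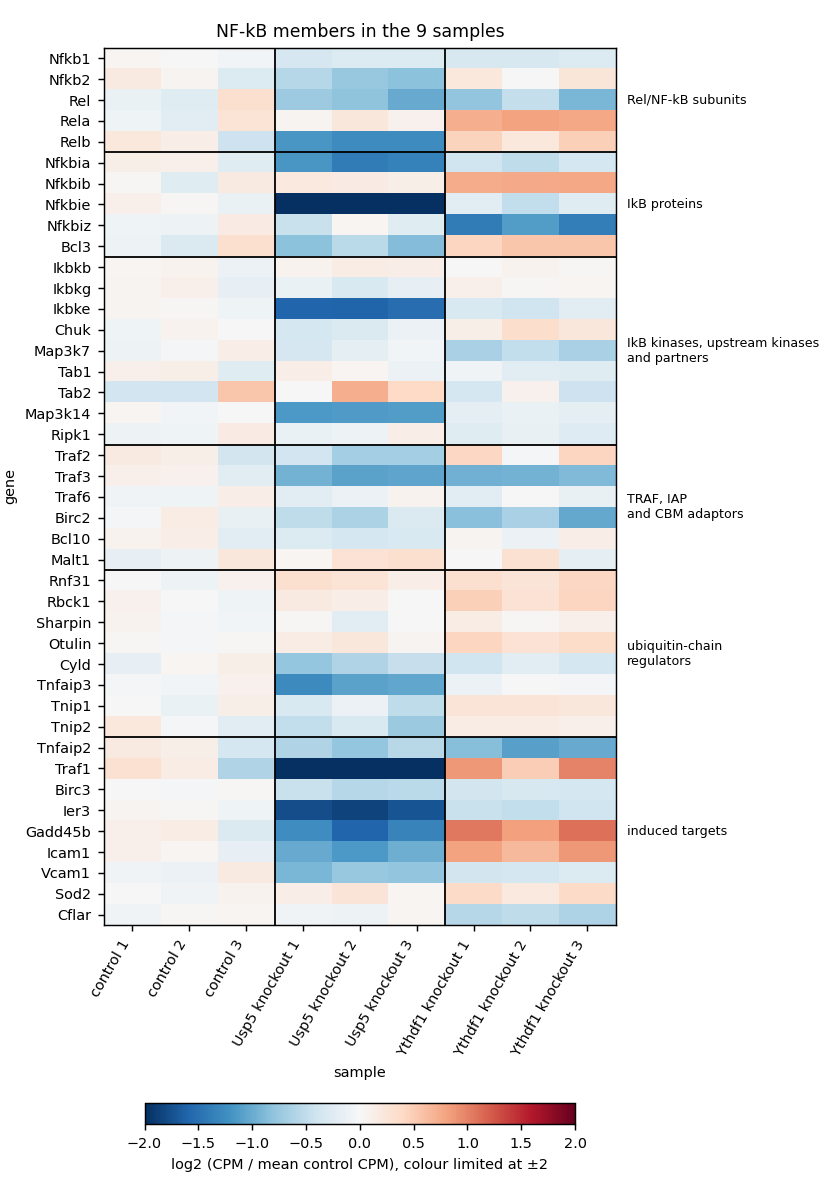
Level of each of the 42 genes (rows, grouped by role) in each of the 9 samples (columns), as the log2 ratio of its CPM to the mean of the 3 controls, with colour limited at ±2. The 3 Usp5 knockout columns are blue at Nfkbie, Traf1, Ier3 and Ikbke, while the 3 Ythdf1 knockout columns are red at Rela, Nfkbib, Gadd45b and Icam1.

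The promoters of the 42 genes were searched for the kB consensus, the motif that NF-kB dimers bind. RefSeq windows of 300 bases, from 250 bases before the start of transcription to 50 after it, were on hand for 34 of the 42 genes (44 windows) in build GRCm38.p6, and no other motif was searched. On either strand, the motif was found for 14 of the 34 genes (41.2%), compared with 12.2% of the 10040 tested genes and 9.55% of all 27025 genes with a window. It was present for 10 of the 19 genes that fell in the Usp5 knockout (52.6%) and for 4 of the 15 that did not pass (26.7%). Known NF-kB targets are among the members, which were chosen with earlier results of these data known. Whether these shares differ was not tested. By role, 3 of 4 IkB genes, 2 of 3 subunit genes, 3 of 7 ubiquitin-chain regulators, 3 of 8 induced targets, 2 of 5 adaptors and 1 of 7 genes of the kinase class had a match. To show what the match looks like and how close to the start it lies, the stretches that follow give it in capitals with its flanking bases, 5′ to 3′ along the gene's own strand, for 6 genes that fell in the Usp5 knockout and then for 2 that did not pass. They lie at chr19:46304678-46304727, plus strand for Nfkb2, at chr11:23771032-23771081, minus strand for Rel, at chr12:55492648-55492696, minus strand for Nfkbia, at chr17:45555574-45555623, plus strand for Nfkbie, at chr10:19015411-19015442, minus strand for Tnfaip3, at chr17:35821601-35821650, plus strand for Ier3, at chr17:13007736-13007785, plus strand for Sod2 and at chr4:31963995-31964044, plus strand for Map3k7 (GRCm38.p6).
Nfkb2: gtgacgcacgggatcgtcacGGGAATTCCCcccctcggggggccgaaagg
Rel: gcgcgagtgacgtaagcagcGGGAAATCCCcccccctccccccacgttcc
Nfkbia: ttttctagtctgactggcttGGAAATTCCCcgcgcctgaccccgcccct
Nfkbie: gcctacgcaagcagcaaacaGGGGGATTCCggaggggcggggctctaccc
Tnfaip3: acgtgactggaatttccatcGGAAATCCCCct
Ier3: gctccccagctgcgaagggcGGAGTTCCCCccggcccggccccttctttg
Sod2: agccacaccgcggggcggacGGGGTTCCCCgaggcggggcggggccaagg
Map3k7: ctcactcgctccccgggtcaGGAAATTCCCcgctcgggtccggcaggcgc
The match shown began 39 bases before the start in Nfkb2, 29 in Nfkbia and 12 in Tnfaip3, which has another match from 125 bases before its start. It began 92 bases before the start in Rel and in Ier3, and 106 in Nfkbie. Nfkb2 has further matches from 38 and 11 bases before the same start and in the windows of its other starts. Rel has another from 91, which overlaps the one shown. Windows of Traf1, Icam1, Gadd45b, Ikbke, Map3k14 and Birc3 did not hold these letters. A match is a description of the sequence and does not show that a factor binds there.

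Among the subunits, 4 of 5 fell in the Usp5 knockout (80%, against 9.8% of all tested genes). The exception was Rela, which encodes the main activating subunit. Relb, the partner of the processed Nfkb2 product in the alternative pathway, stood at 60.9, 57.3 and 39.4 CPM in the controls, at 23.4, 21.9 and 21.9 CPM in the Usp5 knockout and 71.8, 61.0 and 73.3 CPM in the Ythdf1 knockout. All Usp5 knockout samples were far below every control, while the Ythdf1 knockout samples were above all controls by a small margin. Its log2 fold change was -1.23 ± 0.15 in the Usp5 knockout (adjusted p = 0.000331) and 0.39 ± 0.15 in the Ythdf1 knockout, where it did not pass (adjusted p = 0.0523). Without control replicate 1 the latter was 0.50 with an adjusted p of 0.0251, and with the GC and length correction it was 0.077 (adjusted p = 0.576). Nfkb2, the precursor subunit of that pathway, gave 283, 259 and 207 CPM in the controls, 168, 148 and 141 CPM in the Usp5 knockout and 289, 253 and 296 CPM in the Ythdf1 knockout. The Usp5 knockout was below all controls and the Ythdf1 knockout overlapped them. Log2 fold changes were -0.71 ± 0.12 (adjusted p = 0.00282) and 0.16 ± 0.12 (adjusted p = 0.312).

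Rela was the subunit with the largest rise in the Ythdf1 knockout. It measured 157, 143 and 203 CPM in the controls, 174, 196 and 178 CPM in the Usp5 knockout and 278, 294 and 286 CPM in the Ythdf1 knockout. Every Ythdf1 knockout sample exceeded every control, and the Usp5 knockout samples lay within the range of the controls, of which replicate 3 was the highest. The log2 fold change was 0.77 ± 0.12 in the Ythdf1 knockout (adjusted p = 0.000583) and 0.12 ± 0.12 in the Usp5 knockout (adjusted p = 0.505). Without control replicate 3 the latter became 0.28 and passed, with an adjusted p of 0.0243.

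The remaining subunits, Nfkb1 and Rel, fell in each knockout. Nfkb1, whose precursor yields the classical partner of Rela, was at 133, 130.4 and 124 CPM in the controls, at 103, 107 and 107 CPM in the Usp5 knockout and 103, 103 and 107 CPM in the Ythdf1 knockout. The changes were small, -0.29 ± 0.065 (adjusted p = 0.0113) and -0.30 ± 0.065 (adjusted p = 0.00356) on the log2 scale, but no knockout sample reached the lowest control. The Usp5 call ended without control replicate 1, at -0.27 with an adjusted p of 0.0513. Rel, best known from lymphoid cells, was at 9.44, 8.75 and 13.0 CPM in the controls, at 6.31, 5.95 and 5.16 CPM in the Usp5 knockout and 5.99, 7.46 and 5.51 CPM in the Ythdf1 knockout. All knockout samples were below all controls. Its log2 fold changes were -0.83 ± 0.18 (adjusted p = 0.00861) and -0.71 ± 0.18 (adjusted p = 0.00782), and the second fell short after the GC and length correction, at -0.21 with an adjusted p of 0.319.

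Of the IkB genes, 3 of 5 fell in the Usp5 knockout (60%, against 9.8% of all genes). In the Ythdf1 knockout 2 rose (40%, against 23.7%) and 3 fell (60%, against 22.8%). Nfkbie, which encodes IkB epsilon, showed the largest fall of this class. It gave 23.5, 22.4 and 20.2 CPM in the controls, 5.49, 4.79 and 5.16 CPM in the Usp5 knockout and 18.7, 15.6 and 18.6 CPM in the Ythdf1 knockout. Neither knockout overlapped the controls, and the Usp5 knockout samples were the lowest by far. Log2 fold changes were -2.09 ± 0.11 (adjusted p = 1.78e-06), which leaves 23.4% of the control level, and -0.32 ± 0.11 (adjusted p = 0.0292). The smaller change lost its call without control replicate 1 or 2 or Ythdf1 knockout replicate 2, with adjusted p-values from 0.0706 to 0.100.

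Nfkbia, the rapidly induced inhibitor IkB alpha that closes the feedback loop, followed the same order of groups. Its values were 66.5, 66.1 and 52.3 CPM in the controls, 27.6, 23.4 and 24.2 CPM in the Usp5 knockout and 46.7, 43.5 and 48.4 CPM in the Ythdf1 knockout. Each knockout lay below all controls, the Usp5 knockout further down. The log2 fold change was -1.30 ± 0.11 in the Usp5 knockout (adjusted p = 3.29e-05) and -0.42 ± 0.11 in the Ythdf1 knockout (adjusted p = 0.0104), and -0.71 in the latter after the GC and length correction. Nfkbib, which encodes IkB beta and is not known for rapid induction, was measured at 47.6, 39.5 and 53.2 CPM in the controls, 53.5, 52.3 and 50.8 CPM in the Usp5 knockout and 78.3, 78.8 and 80.3 CPM in the Ythdf1 knockout. Only the Ythdf1 knockout samples were clear of the controls. Nfkbib had log2 fold changes of 0.16 ± 0.10 (adjusted p = 0.296) and 0.76 ± 0.10 (adjusted p = 0.000237). The rise shrank to 0.34 with the GC and length correction and then missed the threshold (adjusted p = 0.0676), and without control replicate 3 the Usp5 value of 0.26 passed (adjusted p = 0.0475).

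The nuclear IkB proteins Bcl3 and Nfkbiz, which act as cofactors of DNA-bound dimers, differed from each other. Bcl3 measured 78.2, 68.5 and 104 CPM in the controls, 47.1, 57.7 and 45.6 CPM in the Usp5 knockout and 112, 122 and 123 CPM in the Ythdf1 knockout, so that the control range lay between those of the knockouts. It changed by -0.73 ± 0.15 in the Usp5 knockout (adjusted p = 0.00625) and by 0.52 ± 0.15 in the Ythdf1 knockout (adjusted p = 0.0145). The rise was not called after the GC and length correction (0.17, adjusted p = 0.493), without control replicate 2 (adjusted p = 0.0559) or without Ythdf1 knockout replicate 3 (adjusted p = 0.0571). Nfkbiz measured 25.2, 25.1 and 30.2 CPM in the controls, 19.6, 27.6 and 22.7 CPM in the Usp5 knockout and 10.2, 12.4 and 10.3 CPM in the Ythdf1 knockout. Here the Ythdf1 knockout was the low group and the Usp5 knockout overlapped the controls. Nfkbiz was the only member past 2-fold in the Ythdf1 knockout, at -1.29 ± 0.14 (adjusted p = 8.81e-05), against -0.20 ± 0.14 in the Usp5 knockout (adjusted p = 0.335). Gadd45b at 0.99 and Tnfaip2 at -0.98 were just short of 2-fold there, and Tnfaip2 passed it with the GC and length correction (-1.18).

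**Figure D2:**
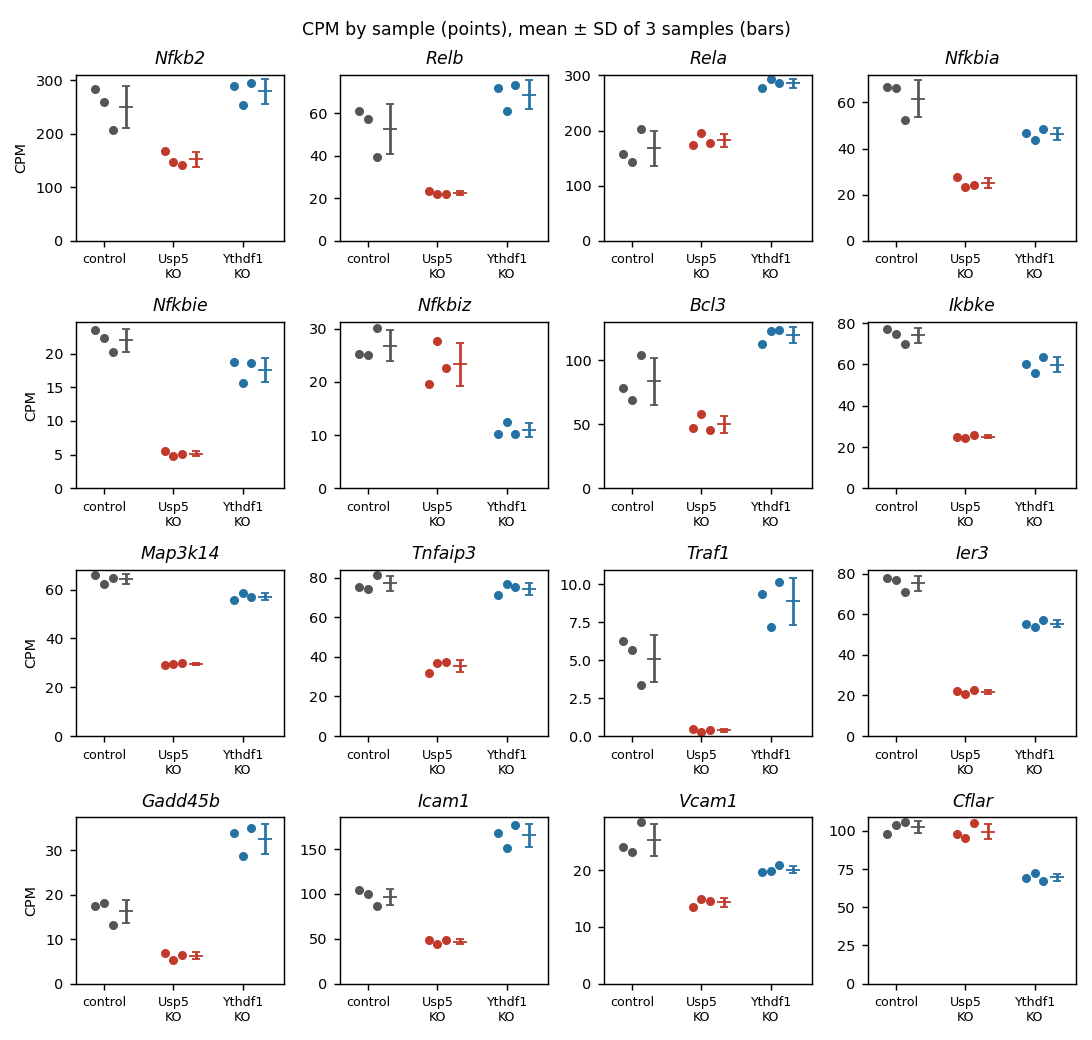
CPM of 16 genes in every sample (points) of the control, Usp5 knockout and Ythdf1 knockout groups, with the mean and SD of 3 samples beside them, on linear axes that start at 0. Nfkbie, Ikbke, Map3k14, Tnfaip3, Traf1 and Ier3 are low in the Usp5 knockout alone or most of all there, Nfkbiz and Cflar are low in the Ythdf1 knockout, and Bcl3, Traf1, Gadd45b and Icam1 lie on opposite sides of the controls.

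Among the 9 genes of kinases and their partners, Ikbke and Map3k14 fell in the Usp5 knockout (22.2%, against 9.8% of all genes). Ikbke and Map3k7 fell in the Ythdf1 knockout (22.2%, near the 22.8% of all genes). The others did not pass in either comparison with the controls. Ikbke, an IKK-related kinase that also acts in interferon induction, was at 77.2, 74.9 and 69.9 CPM in the controls, at 24.7, 24.5 and 25.8 CPM in the Usp5 knockout and 60.1, 56.0 and 63.4 CPM in the Ythdf1 knockout. The groups did not overlap, and the Usp5 knockout held 33.7% of the control level. Ikbke changed by -1.57 ± 0.079 (adjusted p = 1.29e-06) and -0.31 ± 0.077 (adjusted p = 0.00811). Map3k14, the NF-kB-inducing kinase that drives processing of the Nfkb2 product, was at 66.1, 62.2 and 64.7 CPM in the controls, at 29.0, 29.4 and 29.8 CPM in the Usp5 knockout and 56.0, 58.6 and 56.9 CPM in the Ythdf1 knockout. Replicates of each group were within a few CPM of each other. The log2 fold change was -1.13 ± 0.068 in the Usp5 knockout (adjusted p = 3.59e-06) and -0.17 ± 0.067 in the Ythdf1 knockout (adjusted p = 0.0582). That second value missed the threshold narrowly and passed without Usp5 knockout replicate 1 or 2 or Ythdf1 knockout replicate 2 (adjusted p from 0.0339 to 0.0460).

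Ikbkb and Chuk, the catalytic subunits of the IkB kinase, and its scaffold Ikbkg (NEMO) made up the core of the complex. Ikbkb averaged 57.9 ± 3.96 CPM in the controls and had log2 fold changes of 0.12 ± 0.074 and 0.03 ± 0.074. For Chuk they were -0.25 ± 0.092 and 0.23 ± 0.092, and the former passed without Usp5 knockout replicate 3 (-0.32, adjusted p = 0.0395), as did the latter (0.23, adjusted p = 0.0440). Ikbkg had -0.20 ± 0.088 and 0.052 ± 0.088, and without control replicate 3 the Usp5 value of -0.27 passed (adjusted p = 0.0243). The correction for GC content and length raised the Ythdf1 value of Chuk to 0.56 (adjusted p = 0.000159). Map3k7, the kinase TAK1 that activates the IKK complex, fell in the Ythdf1 knockout at -0.60 ± 0.097 (adjusted p = 0.000749) and had -0.19 ± 0.097 in the Usp5 knockout (adjusted p = 0.194). The GC and length correction brought the Ythdf1 value of Map3k7 to -0.24 (adjusted p = 0.00337). Its partners Tab1 and Tab2 did not pass in either comparison. Tab2 varied widely between replicates, with 108, 108 and 205 CPM in the controls, 140.2, 233 and 184 CPM in the Usp5 knockout and 110.2, 148 and 105 CPM in the Ythdf1 knockout. Control replicate 3 was the high control, and without it the Usp5 value of Tab2 was 0.79 with an adjusted p of 0.0140, while Tab1 passed in the Ythdf1 knockout at -0.28 (adjusted p = 0.0341). Ripk1, the kinase at the TNF receptor, had log2 fold changes of -0.025 ± 0.098 and -0.22 ± 0.099 (adjusted p = 0.886 and 0.0953).

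**Figure D3:**
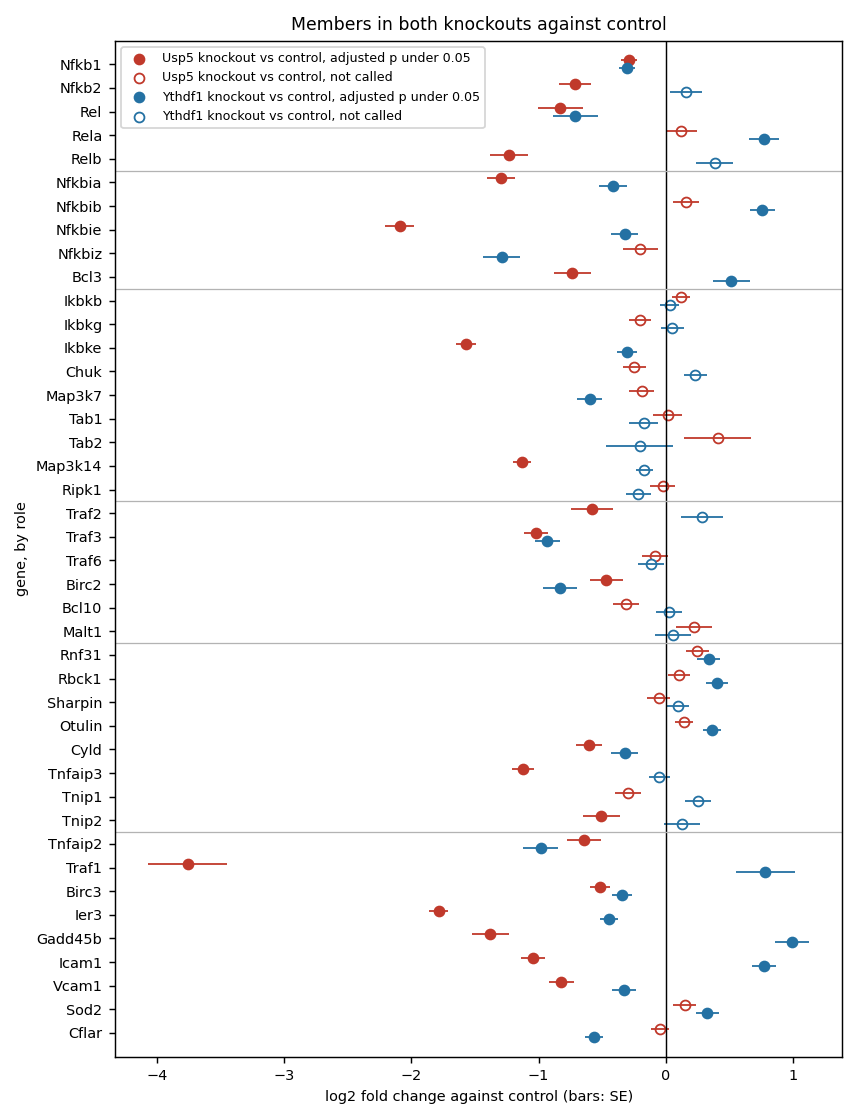
Log2 fold change against control (x axis) of all 42 genes (y axis, by role) in the Usp5 knockout (red) and the Ythdf1 knockout (blue), with SE as bars and filled points for an adjusted p under 0.05. Red filled points all lie left of 0, from -0.29 for Nfkb1 to -3.76 for Traf1, and blue filled points lie on either side, from -1.29 for Nfkbiz to 0.99 for Gadd45b.

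Of the 6 adaptor genes, Traf2, Traf3 and Birc2 fell in the Usp5 knockout (50%, against 9.8% of all genes). Traf3 and Birc2 fell in the Ythdf1 knockout (33.3%, against 22.8%). Traf3, which keeps Map3k14 protein low by bringing it to ubiquitin ligases, was at 56.1, 55.9 and 45.5 CPM in the controls, at 27.3, 25.1 and 25.2 CPM in the Usp5 knockout and 26.9, 27.2 and 28.6 CPM in the Ythdf1 knockout. All 6 knockout samples lay below all controls and overlapped each other. Traf3 changed by -1.02 ± 0.096 (adjusted p = 5.66e-05) and -0.93 ± 0.096 (adjusted p = 5.58e-05). Birc2, an IAP ubiquitin ligase of the same complex, fell by 0.47 in the Usp5 knockout (adjusted p = 0.0295) and by 0.83 in the Ythdf1 knockout (adjusted p = 0.000671) on the log2 scale. Traf2, the adaptor that links Traf3 to the IAP ligases, fell by 0.58 in the Usp5 knockout (adjusted p = 0.0359) and had 0.29 ± 0.17 in the Ythdf1 knockout (adjusted p = 0.182). The Usp5 calls of Birc2 and Traf2 were each lost without 5 of the 9 samples in turn, with adjusted p-values of 0.0541 to 0.126 for Birc2 and 0.0521 to 0.128 for Traf2. For Birc2 these were control replicates 1 and 2, Usp5 knockout replicates 1 and 2 and Ythdf1 knockout replicate 1. For Traf2 they were control replicates 1 and 2, Usp5 knockout replicates 2 and 3 and Ythdf1 knockout replicate 1. Traf6, which acts below Toll-like and interleukin receptors, and the CBM complex genes Bcl10 and Malt1 did not pass in either knockout. Bcl10 had -0.31 ± 0.11 in the Usp5 knockout (adjusted p = 0.0628), a value that passed without control replicate 3 (-0.41, adjusted p = 0.00594), and 0.025 ± 0.11 in the Ythdf1 knockout. The pairs of values were -0.084 ± 0.10 and -0.12 ± 0.10 for Traf6 and 0.22 ± 0.14 and 0.06 ± 0.14 for Malt1.

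Among the 8 regulators of ubiquitin chains, Cyld, Tnfaip3 and Tnip2 fell in the Usp5 knockout (37.5%, against 9.8% of all genes). In the Ythdf1 knockout Rnf31, Rbck1 and Otulin rose (37.5%, against 23.7%) and Cyld fell (12.5%, against 22.8%). Rnf31, the catalytic ligase for linear chains, stood at 18.6, 17.1 and 19.7 CPM in the controls, at 23.1, 22.2 and 20.3 CPM in the Usp5 knockout and 23.1, 22.1 and 24.7 CPM in the Ythdf1 knockout. Every knockout sample was above every control, by little. Log2 fold changes of Rnf31 were 0.25 ± 0.091 (adjusted p = 0.0793) and 0.34 ± 0.091 (adjusted p = 0.0120). The former passed without control replicate 3 (0.30, adjusted p = 0.0348), and the latter did not pass without control replicate 2 (0.28, adjusted p = 0.0539) or Ythdf1 knockout replicate 3 (0.26, adjusted p = 0.0766). Rbck1, its accessory ligase, stood at 215, 203 and 191 CPM in the controls, at 230.0, 222 and 202 CPM in the Usp5 knockout and 282, 249 and 272 CPM in the Ythdf1 knockout. The Ythdf1 knockout samples were all above the controls. Rbck1 changed by 0.40 ± 0.086 there (adjusted p = 0.00353) and by 0.10 ± 0.085 in the Usp5 knockout (adjusted p = 0.426). Sharpin, the third subunit, stood at 21.6, 20.3 and 20.0 CPM in the controls, at 21.0, 17.8 and 20.8 CPM in the Usp5 knockout and 22.9, 21.0 and 22.1 CPM in the Ythdf1 knockout, and the groups overlapped. Sharpin had log2 fold changes of -0.054 ± 0.09 (adjusted p = 0.713) and 0.093 ± 0.09 (adjusted p = 0.423).

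Otulin encodes the deubiquitinase that cuts linear chains and binds the catalytic ligase. It stood at 81.7, 78.3 and 81.4 CPM in the controls, at 89.2, 94.0 and 83.5 CPM in the Usp5 knockout and 108, 98.2 and 104 CPM in the Ythdf1 knockout. Its log2 fold change was 0.36 ± 0.073 in the Ythdf1 knockout (adjusted p = 0.00250) and 0.14 ± 0.073 in the Usp5 knockout (adjusted p = 0.189). After the GC and length correction the Ythdf1 values of Otulin and Rbck1 were 0.088 (adjusted p = 0.386) and 0.078 (adjusted p = 0.289), while that of Rnf31 kept its call at 0.24 (adjusted p = 0.0449). Cyld, the deubiquitinase that removes linear and lysine 63-linked chains, went the other way. Its values were 45.9, 53.0 and 55.9 CPM in the controls, 30.3, 34.2 and 37.4 CPM in the Usp5 knockout and 39.0, 44.2 and 40.6 CPM in the Ythdf1 knockout, below all controls in each case. The log2 fold changes were -0.60 ± 0.11 (adjusted p = 0.00304) and -0.32 ± 0.11 (adjusted p = 0.0287). The second turned to 0.13 with the GC and length correction (adjusted p = 0.124) and was not called without control replicate 2 or 3 or Ythdf1 knockout replicate 1 or 3 (adjusted p from 0.0680 to 0.0817).

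Tnfaip3, the ubiquitin-editing enzyme that ends signalling and is itself an NF-kB target, was the member of this class with the largest change. It measured 75.2, 74.4 and 81.4 CPM in the controls, 31.7, 36.8 and 37.5 CPM in the Usp5 knockout and 71.0, 76.6 and 75.4 CPM in the Ythdf1 knockout. The Usp5 knockout stood clear of the other groups, which overlapped. Tnfaip3 had log2 fold changes of -1.12 ± 0.085 (adjusted p = 1.47e-05) and -0.05 ± 0.084 (adjusted p = 0.654). Its ubiquitin-binding partner Tnip2 fell by 0.51 in the Usp5 knockout (adjusted p = 0.0340), a call lost without 6 of the 9 samples in turn (control replicates 1 and 2, Usp5 knockout replicates 1 and 3, and Ythdf1 knockout replicates 1 and 3, adjusted p from 0.0524 to 0.125). Tnip1, the other partner, had -0.30 ± 0.10 (adjusted p = 0.0664) and 0.25 ± 0.10 (adjusted p = 0.0650). The Usp5 value of Tnip1 passed without Usp5 knockout replicate 2 (-0.40, adjusted p = 0.0276), and its Ythdf1 value without control replicate 3 or Usp5 knockout replicate 3 (adjusted p = 0.0321 and 0.0356).

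Of the 9 induced targets, 7 fell in the Usp5 knockout (77.8%, against 9.8% of all genes). In the Ythdf1 knockout 4 rose (44.4%, against 23.7%) and 5 fell (55.6%, against 22.8%). Traf1, an adaptor that NF-kB induces strongly, fell to 7.39% of its control level in the Usp5 knockout. Traf1 gave 6.29, 5.66 and 3.38 CPM in the controls, 0.446, 0.245 and 0.424 CPM in the Usp5 knockout and 9.36, 7.16 and 10.2 CPM in the Ythdf1 knockout. The control range lay between the ranges of the knockouts, with control replicate 3 the lowest control. The log2 fold change of Traf1 was -3.76 ± 0.31 in the Usp5 knockout (adjusted p = 2.51e-05) and 0.78 ± 0.23 in the Ythdf1 knockout (adjusted p = 0.0189). The rise was not called without Ythdf1 knockout replicate 1 (0.71, adjusted p = 0.0751) or replicate 3 (0.65, adjusted p = 0.0927).

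Gadd45b, a stress-induced gene that restrains cell death, and Icam1, an adhesion ligand for leukocytes, also lay on opposite sides of the controls. Gadd45b gave 17.5, 18.1 and 13.3 CPM in the controls, 6.88, 5.42 and 6.47 CPM in the Usp5 knockout and 33.8, 28.7 and 34.9 CPM in the Ythdf1 knockout. It changed by -1.38 ± 0.14 (adjusted p = 0.000123) and 0.99 ± 0.14 (adjusted p = 0.000292), with no overlap between any of the groups. Icam1 gave 104, 99.8 and 86.5 CPM in the controls, 48.3, 43.7 and 49.0 CPM in the Usp5 knockout and 168, 151 and 177 CPM in the Ythdf1 knockout. Again the 3 groups were separate, in the order Usp5 knockout, control, Ythdf1 knockout. Icam1 changed by -1.04 ± 0.095 (adjusted p = 4.85e-05) and 0.77 ± 0.094 (adjusted p = 0.000150).

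Ier3, an early response gene tied to survival, fell in each knockout. Its values were 77.9, 76.8 and 71.0 CPM in the controls, 22.0, 20.8 and 22.7 CPM in the Usp5 knockout and 55.0, 53.6 and 57.1 CPM in the Ythdf1 knockout. Replicates were tight and the groups separate, which gave -1.79 ± 0.076 (adjusted p = 3.7e-07) and -0.45 ± 0.074 (adjusted p = 0.000834). The Usp5 knockout kept 29.0% of the control level of Ier3. Vcam1, the other adhesion ligand of the list, had 24.1, 23.3 and 28.5 CPM in the controls, 13.4, 14.9 and 14.6 CPM in the Usp5 knockout and 19.7, 19.8 and 20.8 CPM in the Ythdf1 knockout. Each knockout was below all controls. Vcam1 changed by -0.82 ± 0.097 (adjusted p = 0.000275) and -0.33 ± 0.096 (adjusted p = 0.0175), but the latter became 0.066 with the GC and length correction (adjusted p = 0.588).

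Tnfaip2, a TNF-induced cytoplasmic protein, was at 30.9, 29.8 and 21.5 CPM in the controls, at 18.0, 16.1 and 18.6 CPM in the Usp5 knockout and 15.1, 12.9 and 13.6 CPM in the Ythdf1 knockout. The Ythdf1 knockout samples were the lowest. Its log2 fold changes were -0.64 ± 0.14 (adjusted p = 0.00845) and -0.98 ± 0.14 (adjusted p = 0.000318). Birc3, the inducible IAP ligase, was at 21.5, 20.9 and 21.6 CPM in the controls, at 15.7, 14.4 and 14.6 CPM in the Usp5 knockout and 16.6, 17.1 and 16.7 CPM in the Ythdf1 knockout. All knockout samples were below the controls, at -0.51 ± 0.077 (adjusted p = 0.00123) and -0.35 ± 0.077 (adjusted p = 0.00455).

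Sod2 and Cflar, targets that oppose oxidative stress and caspase activation, were the induced targets that did not pass in the Usp5 knockout. The mitochondrial superoxide dismutase gene Sod2 was at 42.0, 40.1 and 44.3 CPM in the controls, at 46.1, 50.4 and 43.5 CPM in the Usp5 knockout and 55.2, 48.3 and 55.0 CPM in the Ythdf1 knockout. Its log2 fold changes were 0.15 ± 0.088 (adjusted p = 0.267) and 0.33 ± 0.088 (adjusted p = 0.0120). The rise in the Ythdf1 knockout was not called after the GC and length correction (0.088, adjusted p = 0.477), nor without control replicate 2 or Ythdf1 knockout replicate 1 or 3 (adjusted p from 0.0507 to 0.0723). Cflar, the inhibitor of caspase activation at death receptors, was at 97.9, 104 and 106 CPM in the controls, at 98.0, 95.6 and 105 CPM in the Usp5 knockout and 69.1, 72.3 and 67.2 CPM in the Ythdf1 knockout. The Usp5 knockout overlapped the controls and the Ythdf1 knockout was below them all. Cflar changed by -0.045 ± 0.071 (adjusted p = 0.695) and -0.56 ± 0.071 (adjusted p = 0.000181).

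The comparisons above share their control samples, so the knockouts were also compared with each other. In this contrast the controls enter the estimate of the spread, the scaling and the choice of tested genes, but their levels are not compared. Of the 42 genes, 24 had a lower level after loss of Usp5 than after loss of Ythdf1, 4 had a higher level and 14 missed the threshold, where 25.2% of all tested genes were lower and 23.3% were higher. The median log2 difference over the members was -0.29, against 0.00028 over all genes. Traf1 differed most, at -4.54 ± 0.31 (adjusted p = 3.11e-06), followed by Gadd45b at -2.37 ± 0.15 (adjusted p = 1.67e-06) and Icam1 at -1.82 ± 0.097 (adjusted p = 6.07e-07). Nfkbie differed by -1.77 ± 0.11 (adjusted p = 2.09e-06), Relb by -1.62 ± 0.15 (adjusted p = 2.31e-05) and Bcl3 by -1.25 ± 0.15 (adjusted p = 9.63e-05). The kinases Ikbke and Map3k14 were lower in the Usp5 knockout by 1.26 and 0.96 on the log2 scale, and Tnfaip3 by 1.07. In the other direction, Nfkbiz was higher at 1.09 ± 0.14 (adjusted p = 0.000194), Cflar at 0.52 ± 0.071 (adjusted p = 0.000251), Map3k7 at 0.41 ± 0.097 (adjusted p = 0.00611) and Birc2 at 0.36 ± 0.13 (adjusted p = 0.0451).

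Nfkb1, Rel, Traf3 and Rnf31 did not pass between the knockouts, with differences of 0.014 ± 0.065, -0.12 ± 0.18, -0.091 ± 0.096 and -0.088 ± 0.091 on the log2 scale, which does not show that their levels were equal. Rbck1 was lower in the Usp5 knockout at -0.30 ± 0.086 (adjusted p = 0.0161) and Otulin at -0.22 ± 0.073 (adjusted p = 0.0308). Several of these direct calls were near the threshold. Ikbkg (-0.25 ± 0.088), Bcl10 (-0.34 ± 0.11), Cyld (-0.28 ± 0.11), Otulin, Rbck1 and Birc2 each lost their call without 4 to 6 of the 9 samples in turn, with adjusted p-values of up to 0.204, 0.133, 0.232, 0.173, 0.0985 and 0.149. Every sample of both knockouts was among those whose removal ended at least 1 of these 6 calls, as were control replicates 1 and 2 for Birc2 and control replicate 2 for Cyld. Tab2, at 0.61 ± 0.27, passed without control replicate 3, Usp5 knockout replicate 1 or Ythdf1 knockout replicate 2 (adjusted p from 0.0133 to 0.0475), and Tnfaip2, at 0.34 ± 0.14, passed without control replicate 3 (adjusted p = 0.00972).

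Levels were compared between genes per kilobase of the deposited gene length. In the controls Rbck1 had the highest level of the 42 genes, at 94.5 ± 5.68 CPM per kilobase (SD, n = 3), followed by Nfkb2 at 82.2 ± 12.8, Rela at 78.9 ± 14.7, Ier3 at 66.5 ± 3.27 and Otulin at 55.6 ± 1.31. Rbck1 and Nfkb2 differed by less than the SD of Nfkb2, and Nfkb2 and Rela by less than either SD. The order depends on the length used: per kilobase of the deposited effective length, Ier3 came first, followed by Rbck1, Nfkb2 and Rela. At the other end were Tnip2 at 4.35 ± 0.663, Traf1 at 2.65 ± 0.793 and Rel at 1.39 ± 0.305 CPM per kilobase, and the whole range was 67.9-fold. Unlike their partner Rbck1, Rnf31 stood at 5.21 ± 0.363 and Sharpin at 13.9 ± 0.592 CPM per kilobase. The 9 genes of kinases and their partners lay within a 2.98-fold range, from Tab1 to Tab2. In the Usp5 knockout the range over all members was 528-fold, from 0.192 ± 0.0571 CPM per kilobase for Traf1 to 102 ± 6.78 for Rbck1. In the Ythdf1 knockout Rela had the highest level, at 135 ± 3.71 CPM per kilobase.

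**Figure D4:**
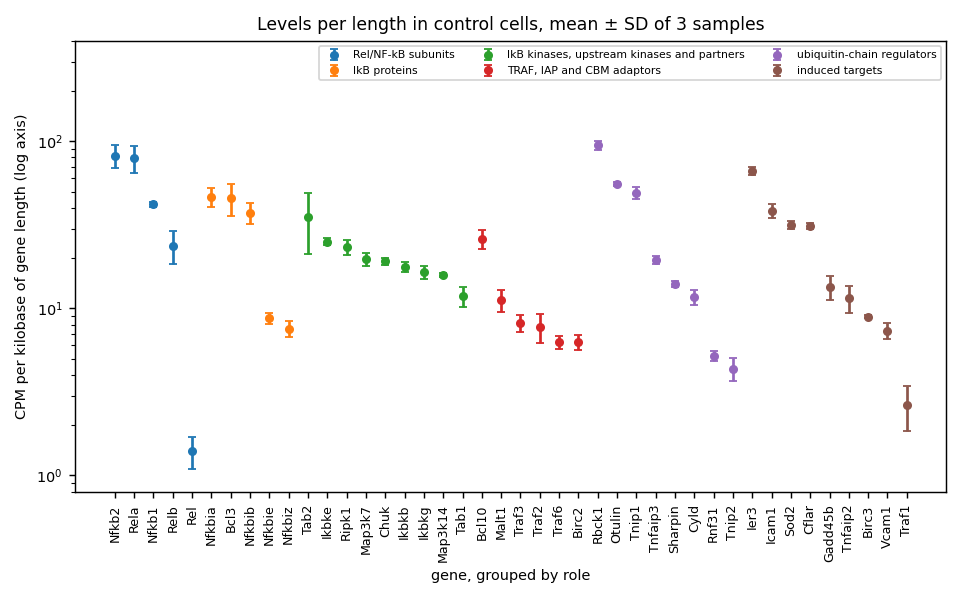
Level of each of the 42 genes in the control samples, in CPM per kilobase of gene length on a log axis, as the mean and SD of 3 samples, coloured and ordered by role. Rbck1, Nfkb2 and Rela are at the top and Rel and Traf1 at the bottom, and the kinases and their partners lie within a 2.98-fold range.

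Further NF-kB genes, which are no members of the set, were taken from 3 lists, also chosen with earlier results of these data known. Of 40 other inducible target genes 32 were tested. In the Usp5 knockout 21 fell (65.6%, against 9.8% of all genes) and 0 rose (against 9.96%). The median log2 fold change was -0.85. DESeq2 called 0 of these genes higher, against 13.2% of all genes. Without adjustment 2 were higher at p under 0.05, where the share of all genes was not counted. Among the lower genes were the chemokine Ccl2, with 36.2 ± 1.74 CPM in control samples and 0.0195 ± 0.0178 CPM without Usp5, the protease Mmp9, with 1.40 ± 0.198 and 0.0385 ± 0.0667 CPM, and complement C3, with 268 ± 5.25 and 6.72 ± 0.255 CPM (SD, n = 3). The Usp5 knockout values of Ccl2 and Mmp9 are near the floor. They rest on 2 and 3 counts over the 3 samples, those of Mmp9 all in replicate 3. In the Ythdf1 knockout 15 of the 32 rose (46.9%, against 23.7% of all genes) and 10 fell (31.2%, against 22.8%), with a median of 0.33. There the neutrophil attractant Cxcl2 rose by 2.47, from 1.46 ± 0.158 to 8.11 ± 0.431 CPM (SD, n = 3), the chemokine Ccl20 by 1.81 and the growth factor Csf2 by 1.39, while Ccl2 fell by 2.17, Cxcl5 by 1.13 and Ltb by 1.00. Between the knockouts, 26 of the 32 were lower in the Usp5 knockout (81.2%, against 25.2% of all genes). Only 3 were higher (9.38%, against 23.3%), and the median was -1.20.

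Of 24 receptors upstream of NF-kB 17 were tested. In the Usp5 knockout 5 fell (29.4%, against 9.8% of all genes) and 1 rose (5.88%, against 9.96%), with a median of -0.15. The death receptor Fas fell by 1.26, Tlr2, which senses bacterial lipoproteins, by 1.14, and Cd40 by 0.90, while Tnfrsf21 rose by 0.35. In the Ythdf1 knockout 6 receptors rose (35.3%, against 23.7% of all genes) and 2 fell (11.8%, against 22.8%). Il1rap, the accessory chain of the interleukin-1 receptor, fell by 2.13, from 2.22 ± 0.0898 to 0.503 ± 0.120 CPM, and the endotoxin receptor Tlr4 by 0.81. The lymphotoxin receptor Ltbr rose by 0.74, Tnfrsf12a by 0.72 and Tnfrsf10b by 0.54. Of 47 other adaptors, kinases and regulators 42 were tested. In the Usp5 knockout 6 rose (14.3%) and 4 fell (9.52%), shares near the 9.96% and 9.8% of all genes, with a median of 0.00058. Irak3, which restrains Toll-like receptor signalling, rose there by 0.82, Pdlim2 by 0.78 and Traf3ip2 by 0.62, while Tnip3 fell by 1.64, Card10 by 0.52 and Rnf11 by 0.44. In the Ythdf1 knockout 13 genes of this list rose (31%, against 23.7%) and 7 fell (16.7%, against 22.8%). Irak3 rose by 0.84, Traf4 by 0.80 and Irak2 by 0.54, while Azi2 fell by 0.69, Map3k1 by 0.58 and the kinase Tbk1 by 0.56.

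The correction for GC content and gene length changed more calls in the Ythdf1 comparison than in the Usp5 comparison. For the Ythdf1 knockout it ended the calls of Rel, Nfkbib, Bcl3, Rbck1, Otulin, Cyld, Vcam1 and Sod2 and added Chuk, Tab1, Map3k14, Traf6 and Malt1. Corrected values were 0.44 for Rela (adjusted p = 0.0453), 0.63 for Gadd45b, 0.63 for Traf1 and 0.72 for Icam1 on the higher side. On the lower side they were -1.12 for Nfkbiz, -1.18 for Tnfaip2, -0.90 for Traf3 and -0.74 for Ier3. Malt1 moved most among the genes that gained a call, from 0.06 to 0.50 (adjusted p = 0.000347). In the Usp5 comparison the correction added Bcl10, Malt1 and Tnip1 and ended no call. The values of Traf1, Nfkbie, Ier3 and Ikbke were -3.78, -2.12, -1.78 and -1.57 with it. Between the knockouts, 22 of 28 calls held, and those of Rela, Nfkbib, Map3k7, Birc2, Rbck1 and Otulin were lost. Rel, Tab1, Traf6, Tnfaip2 and Birc3 gained a call there, Rel at -0.49 (adjusted p = 0.0277). Cyld moved from -0.28 to -0.64 (adjusted p = 3.6e-05).

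**Figure D5:**
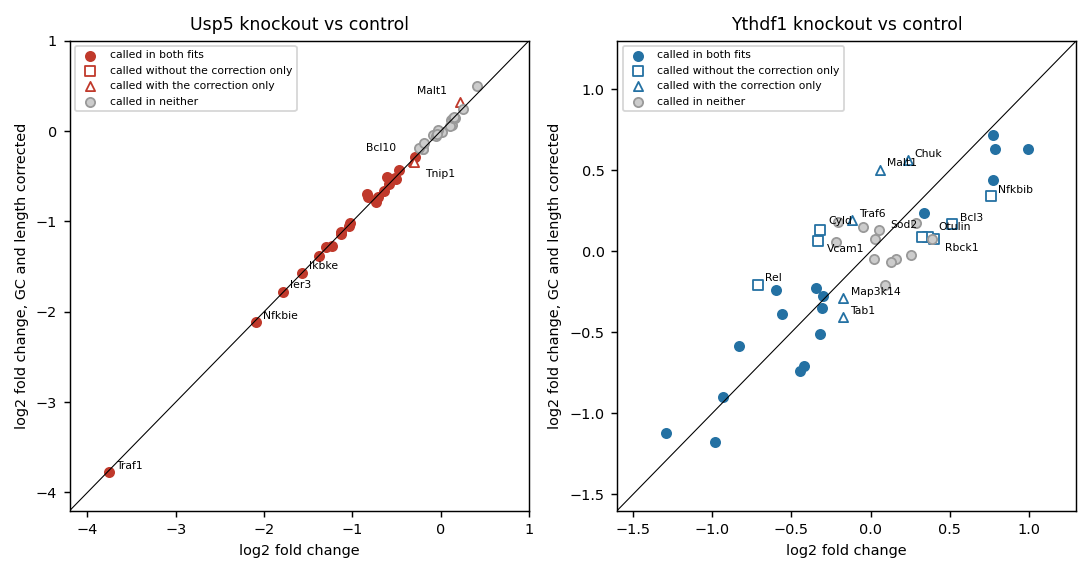
Log2 fold change of each of the 42 genes without (x axis) and with (y axis) the GC and length correction, for the Usp5 knockout (left) and the Ythdf1 knockout (right) against control, with the line of equality and with symbols for the fits that call a gene. Points of the Usp5 comparison lie close to the line, and 8 genes of the Ythdf1 comparison, drawn as open squares, are called without the correction only.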

How the data were processed

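Poly(A) RNA from 9 samples (3 per group) was sequenced. The authors deposited estimated counts per gene, written as whole numbers, with a gene length; the submitters' processing notes list fastp 0.23.2, STAR 2.7.10a, Salmon 1.9.0 and build GRCm39. Overlapping genes may share reads, as strand and annotation release are not given in the sources used here. Counts were tested with edgeR 4.0.16 (R 4.3.3; TMM, filterByExpr, quasi-likelihood test, group only, all 9 samples), with Benjamini-Hochberg adjustment over the 13661 tested genes. CPM used TMM-scaled totals. The test was tested on simulated data. Members and lists were chosen with earlier results of these data known. By rule, subunits, IkB genes, linear ubiquitin genes and their deubiquitinases, induced targets and other members called at a log2 fold change of at least 1 are given per sample, and up to 3 called genes of at least 1 CPM per further list, direction and knockout by size of change. Labels do not say that samples of a group are separate cultures, and the spread behind each p-value may therefore be technical. No 2 samples agreed within counting noise. Alternatives were other scaling, DESeq2 1.42.0, other filters, a fit of the compared groups, a replicate block, a GC and length correction (GC from transcripts of another build, by identifier) and leaving out each sample. Control replicate 3 was kept.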

Additional observations from a re-analysis of the deposited data

How the results depend on the processing

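Under each of the 17 alternatives run, 18 of 22 members stayed called for the Usp5 knockout, 14 of 25 for the Ythdf1 knockout and 19 of 28 for the direct contrast. The count of members higher in the Usp5 knockout was 0, where 9.96% of all genes were higher. It was 1 with DESeq2 (13.2% of all genes) and 1 with the GC and length correction (12.8%). Leaving out each sample in turn gave 0 to 4, where 5.04% to 16.2% of all genes were higher. The count of 4 (Rela, Nfkbib, Tab2 and Rnf31) was reached without control replicate 3, the setting with the 16.2%. The count higher in the Ythdf1 knockout was 10, and leaving out each sample in turn gave 6 to 12, where 16.2% to 24.5% of all genes were higher. The count of 6 was reached without Ythdf1 knockout replicate 3, the setting with that 16.2%. A fit of only the groups compared kept 18 of the 22 lower calls in the Usp5 knockout, and Nfkb1, Traf2, Birc2 and Tnip2 were lost. In that fit 6.5% of all genes were lower, against 9.8% in the main fit. With the GC and length correction, among members called with or without it, the log2 value reversed for Traf6 (0.19), Cyld (0.13) and Vcam1 (0.066) in the Ythdf1 knockout and for Traf6 (-0.24) and Otulin (0.059) between the knockouts; the cause was not tested. Several members called in neither fit changed sign as well, among them Sharpin, Tnip1 and Ripk1 in the Ythdf1 knockout. Library sizes alone moved the split in the Ythdf1 knockout from 10 higher and 15 lower to 7 and 17, and that of all genes from 23.7% and 22.8% to 15.8% and 30.6%.

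Not all pairs of samples with the same number deviated together (correlations of -0.12 to 0.30 for the Usp5 knockout and the controls and of -0.26 to 0.13 for the Ythdf1 knockout and the controls, and of -0.0039 to 0.19 between the knockouts, positive in each case for replicate 1), so the numbers were not taken to pair them. With the replicate block, members higher and lower were 0 and 21 in the Usp5 knockout, 11 and 15 in the Ythdf1 knockout, and 3 and 23 between the knockouts. The shares of all genes were then 8.68% and 8.49%, 23.2% and 22.2%, and 22.4% and 24.8%, in the same order. At this depth, 1 CPM stands for 24.9 to 45 counts, so Traf1 in the Usp5 knockout rests on few counts, and groups of 3 samples limit the small changes near the threshold most.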
